A study of Mus musculus with 6 samples.

Results

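The Fc receptor family was read from RNA sequencing of lineage-depleted mouse bone marrow, as the 8 genes of the deposited count table whose symbols are Fcgr1, Fcgr2b, Fcgr3, Fcgr4, Fcgrt, Fcer1g, Fcer2a and Fcrla. They were chosen by symbol, but with earlier results of these data known. All 8 are listed among the 33924 genes of the table and passed the filter on low counts, as 15708 genes did. The 6 libraries are 3 labelled Stag2KO and 3 labelled Stag2WT, where Stag2 encodes a subunit of the cohesin ring. The labels give no allele, Cre driver, strain or age, and nothing that all 6 samples carry beyond the depletion of mature lineages on magnetic beads. Whether the replicates are different animals is not stated, so a p-value here speaks only of the spread among these 6 samples, which may be technical. Levels are given in CPM, read counts brought to one common depth through TMM-scaled library sizes, and a gene is called when its adjusted p is below 0.05 by edgeR's quasi-likelihood test with Benjamini-Hochberg adjustment over all tested genes.

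Fc receptors bind the constant part of antibodies and so tie antibody to the cells that act on it. In the mouse, Fcgr1, Fcgr3 and Fcgr4 encode the ligand-binding alpha chains of activating IgG receptors on myeloid cells, and each of these chains needs the common gamma chain encoded by Fcer1g, whose phosphorylated tail recruits the kinase Syk. Fcgr2b encodes the inhibitory IgG receptor, which recruits the phosphatase SHIP and is carried by B cells and myeloid cells. Fcgrt encodes the heavy chain of FcRn, which pairs with beta-2 microglobulin and returns IgG from endosomes to the cell surface. Fcer2a encodes CD23, a lectin-type low-affinity IgE receptor best known from B cells, and Fcrla encodes an Fc receptor-like protein that stays inside B cells.

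Promoter windows are shown because the genes of all 3 activating alpha chains carry the same short motif near their starts, while their fold changes differ. RefSeq (GRCm38.p6) gives, for each start, a window of 300 bases that runs from 250 bases before to 50 bases after it. The letters GAGGAA, a core to which the myeloid and B cell factor PU.1 is known to bind, were searched on both strands, and no other motif was searched. They occur in 9289 of 32851 promoter windows (28.3%) and in 5 of the 11 windows of the family (45.5%), which belong to 4 of its 8 genes. In the windows printed here from 5′ to 3′ on the gene's strand, the capitals mark the match, which in each reads as the complement TTCCTC. It lies 55 bases upstream of the start in Fcgr1 (chr3:96293920-96294219, minus strand), 22 in Fcgr4 (chr1:171018676-171018975, plus strand), 6 in Fcgr3 (chr1:171059354-171059653, minus strand) and 37 in Fcrla (chr1:170927534-170927833, minus strand). A further window of Fcgr3 (chr1:171059345-171059644), not printed, overlaps this one and holds the same site, 15 bases upstream of another start. That site therefore enters the count of windows more than once. Fcgrt (chr7:45103773-45104072, minus strand) is added as a member without a match whose reads fell.
Fcgr1: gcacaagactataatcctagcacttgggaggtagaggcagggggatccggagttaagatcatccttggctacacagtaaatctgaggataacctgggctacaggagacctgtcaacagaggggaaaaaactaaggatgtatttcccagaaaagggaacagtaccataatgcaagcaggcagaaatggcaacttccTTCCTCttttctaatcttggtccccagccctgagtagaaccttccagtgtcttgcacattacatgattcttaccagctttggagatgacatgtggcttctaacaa
Fcgr4: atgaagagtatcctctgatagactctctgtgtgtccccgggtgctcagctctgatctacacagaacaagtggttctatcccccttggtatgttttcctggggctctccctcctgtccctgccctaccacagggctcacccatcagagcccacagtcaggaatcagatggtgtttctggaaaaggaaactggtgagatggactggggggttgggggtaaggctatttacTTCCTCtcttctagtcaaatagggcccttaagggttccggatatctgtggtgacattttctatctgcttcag
Fcgr3: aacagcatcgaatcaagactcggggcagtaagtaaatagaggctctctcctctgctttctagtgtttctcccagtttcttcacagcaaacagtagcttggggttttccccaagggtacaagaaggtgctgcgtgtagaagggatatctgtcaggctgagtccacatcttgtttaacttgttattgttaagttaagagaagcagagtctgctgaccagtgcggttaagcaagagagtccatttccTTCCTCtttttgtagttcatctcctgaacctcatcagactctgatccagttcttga
Fcrla: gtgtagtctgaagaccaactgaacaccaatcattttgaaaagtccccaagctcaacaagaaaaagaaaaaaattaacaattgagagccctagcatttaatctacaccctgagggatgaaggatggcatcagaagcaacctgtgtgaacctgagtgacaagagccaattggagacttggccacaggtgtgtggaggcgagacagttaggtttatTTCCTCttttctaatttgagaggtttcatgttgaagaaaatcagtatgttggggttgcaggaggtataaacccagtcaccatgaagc
Fcgrt: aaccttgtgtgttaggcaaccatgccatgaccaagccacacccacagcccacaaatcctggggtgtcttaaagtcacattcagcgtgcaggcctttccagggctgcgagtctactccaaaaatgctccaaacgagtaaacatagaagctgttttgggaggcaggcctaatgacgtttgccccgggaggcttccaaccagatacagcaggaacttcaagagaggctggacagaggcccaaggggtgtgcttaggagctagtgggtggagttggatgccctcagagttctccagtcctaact
The windows of Fcgr2b, Fcer1g and Fcer2a also lack these letters. A match describes these letters only, and the members with one include both Fcgr1, which fell, and Fcgr3, which was not called.

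A second pair of sequences bears on how well neighbouring genes can be told apart. Fcgr2b and Fcgr3 are near-copies in the part that encodes the extracellular domains: over the 691 coding bases that align between their transcripts (GENCODE vM21, GRCm38), 620 are identical (89.7%). In the stretch printed here, coding bases 256 to 405 of 1020 in Fcgr2b and 241 to 390 of 801 in Fcgr3, 149 of 150 bases match (99.3%), and the capital marks the base that differs.
Fcgr2b: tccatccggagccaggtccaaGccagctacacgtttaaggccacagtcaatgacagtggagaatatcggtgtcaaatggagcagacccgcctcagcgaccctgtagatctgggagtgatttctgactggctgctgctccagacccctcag
Fcgr3: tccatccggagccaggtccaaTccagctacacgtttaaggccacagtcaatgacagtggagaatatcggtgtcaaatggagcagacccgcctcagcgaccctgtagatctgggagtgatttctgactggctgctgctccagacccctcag
Of the 1298 windows of 50 bases in the Fcgr3 transcript, 166 (12.8%) also occur in Fcgr2b. Of the 3495 windows in Fcgr2b, 436 (12.5%) occur in another gene's transcript, with 241 each in Gm47409 and Cplx2, and of the 2193 in Fcer2a 39 (1.78%) do. Read length is not known here, so how many reads this kept out of the counts of these genes was not tested. Fcgr1, Fcgr4, Fcgrt, Fcer1g and Fcrla have no window of this length in common with another gene's transcript.

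Depth was close between the groups. Stag2KO libraries held 29435651 to 37722325 gene reads and Stag2WT libraries 33800670 to 36976756. Stag2 itself stood at 169, 187 and 183 CPM in Stag2KO and at 338, 329 and 324 CPM in Stag2WT, counted over the whole gene (log2 fold change -0.88, SE 0.06, adjusted p = 0.000278). In Stag2KO libraries, reads that the counter assigned to no feature were 11.1% to 12.8% of the total. In Stag2WT libraries this share was 8.81% to 10.1%, and the ranges do not overlap. Whether these reads lie in introns or between genes is not known here. A fit with that share as a covariate called 67 genes in place of 3333 and none of the 8 family genes, so the share and the genotype cannot be told apart in these 6 libraries. Stem and progenitor markers were present in both groups, with all 12 tested and summed levels of 909 to 1052 CPM in Stag2KO and 781 to 918 CPM in Stag2WT.

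Across the family, 4 genes fell in Stag2KO marrow, Fcgr1, Fcer2a, Fcgrt and Fcrla, 0 rose and 4 were not called. Over all tested genes, 21.2% were called, 10.5% lower and 10.7% higher. At an unadjusted p below 0.05 edgeR likewise had 0 members higher (Fcgr3, the closest, had an unadjusted p of 0.0595), and so did DESeq2 by its adjusted p. The median log2 fold change of the 8 members was -0.93, beside 0.01 over all tested genes, and 7 of the 8 had a negative sign. In 5 members the ranges of the groups did not overlap, as in 43.5% of all tested genes. The members that fell spread over chromosomes 3, 8, 7 and 1, while 5 of the family (Fcgr2b, Fcgr3, Fcgr4, Fcer1g and Fcrla) lie within 316.8 kb of chromosome 1 on GRCm38, and 1 of those 5 was called. In bulk RNA, fewer cells of a type and less RNA per cell cannot be told apart, and this touches every difference given here.

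**Figure D1:**
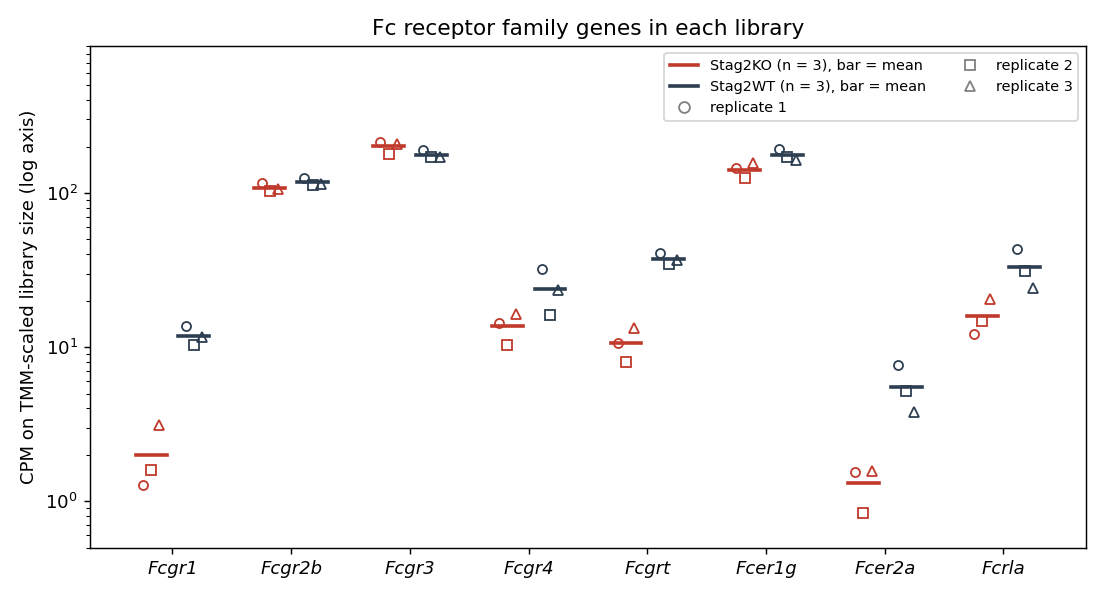
CPM (log axis) of the 8 Fc receptor genes in each library, with Stag2KO left of Stag2WT, 1 symbol per replicate and a bar at the group mean (n = 3 each). Fcgr1, Fcgrt, Fcer1g, Fcer2a and Fcrla have Stag2KO values that all lie below the Stag2WT values, while Fcgr2b, Fcgr3 and Fcgr4 overlap.

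Among the activating IgG receptors, the high-affinity one changed most. Fcgr1, which encodes CD64 and marks monocytes and macrophages (chr3:96282909-96293969, minus strand, GRCm38), had 1.27, 1.61 and 3.12 CPM in the Stag2KO libraries, against 13.7, 10.3 and 11.6 CPM in the Stag2WT libraries. All Stag2KO libraries were low, and the highest of them, replicate 3, was still far below the lowest Stag2WT library. The means were 2.0 ± 0.985 CPM in Stag2KO and 11.9 ± 1.75 CPM in Stag2WT (SD, n = 3 each), so that 16.8% of the Stag2WT level was left (log2 fold change -2.56, SE 0.32, adjusted p = 0.00276). These levels rest on 37, 59 and 119 reads in Stag2KO and 493, 359 and 397 reads in Stag2WT, and the lowest count alone carries a counting error of 16.4%. Without any 1 library the fold change stayed between -3.03 and -2.32 with adjusted p from 0.000299 to 0.0128.

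Fcgr4, a receptor of intermediate affinity on monocytes, macrophages and neutrophils (chr1:171018920-171029761, plus strand), had 14.4, 10.4 and 16.5 CPM in Stag2KO and 32.4, 16.1 and 23.4 CPM in Stag2WT. The groups overlapped, because Stag2KO replicate 3 was above Stag2WT replicate 2. With means of 13.8 ± 3.08 CPM in Stag2KO and 23.9 ± 8.14 CPM in Stag2WT, Fcgr4 was not called (log2 fold change -0.80, SE 0.28, adjusted p = 0.0903). It was called by DESeq2 (-0.81, adjusted p = 0.00689) and by edgeR without Stag2WT replicate 2 (-1.02, adjusted p = 0.0397).

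Fcgr3, the low-affinity activating receptor of most myeloid cells and of natural killer cells (chr1:171051174-171064935, minus strand), had 213.7, 180.3 and 208.7 CPM in Stag2KO and 189.9, 170.4 and 172.5 CPM in Stag2WT. The groups overlapped and Fcgr3 was not called (200.9 ± 18 CPM in Stag2KO and 177.6 ± 10.7 CPM in Stag2WT, a log2 fold change of 0.18, SE 0.08, adjusted p = 0.151). It was the 1 member of the family with a positive sign. Since Fcgr3 outweighed the other activating chains in reads, the sum of Fcgr1, Fcgr3 and Fcgr4 was 217 ± 21.1 CPM in Stag2KO and 213 ± 20.3 CPM in Stag2WT, less than 1 SD apart.

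The inhibitory receptor Fcgr2b (chr1:170958617-170976547, minus strand) had 116.5, 103.3 and 105.8 CPM in Stag2KO and 125.5, 112.2 and 113.8 CPM in Stag2WT. Values of the groups overlapped, and the gene was not called (108.5 ± 7.02 CPM in Stag2KO, 117 ± 7.28 CPM in Stag2WT, a log2 fold change of -0.11, SE 0.07, adjusted p = 0.299). Some of its exon sequence overlaps a gene model on the other strand (Gm38204), and the counter's strand setting is not known here. Set against Fcgr3 within each library, Fcgr2b was lower in every Stag2KO library: the log2 ratio of Fcgr2b to Fcgr3 reads was -0.87, -0.80 and -0.98 in Stag2KO, against -0.60 in each of the Stag2WT libraries. The difference of -0.29 on the log2 scale, 0.541 reads of Fcgr2b per read of Fcgr3 in Stag2KO and 0.660 in Stag2WT, gave a two-sided exact permutation p of 0.1, the smallest that 3 against 3 libraries allow. It lay between -0.33 and -0.24 when any 1 library was left out. This ratio does not depend on library scaling, but both genes have sequence found elsewhere, and reads aligned to several places are not in the counts.

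Read shares among the 4 IgG receptor genes also differed. Fcgr3 took 61.8%, 61.0% and 62.5% of these reads in the Stag2KO libraries and 52.5%, 55.2% and 53.7% in the Stag2WT libraries. Fcgr1 took 0.367%, 0.543% and 0.933% in Stag2KO and 3.79%, 3.32% and 3.62% in Stag2WT. For both genes the groups did not overlap. Fcgr4 averaged 4.2% ± 0.704 in Stag2KO and 7.14% ± 1.87 in Stag2WT, and Fcgr2b 33.4% ± 1.65 in Stag2KO and 35.5% ± 0.796 in Stag2WT (SD, n = 3 each). These shares are of reads, not of molecules, because the genes differ in transcript length.

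**Figure D2:**
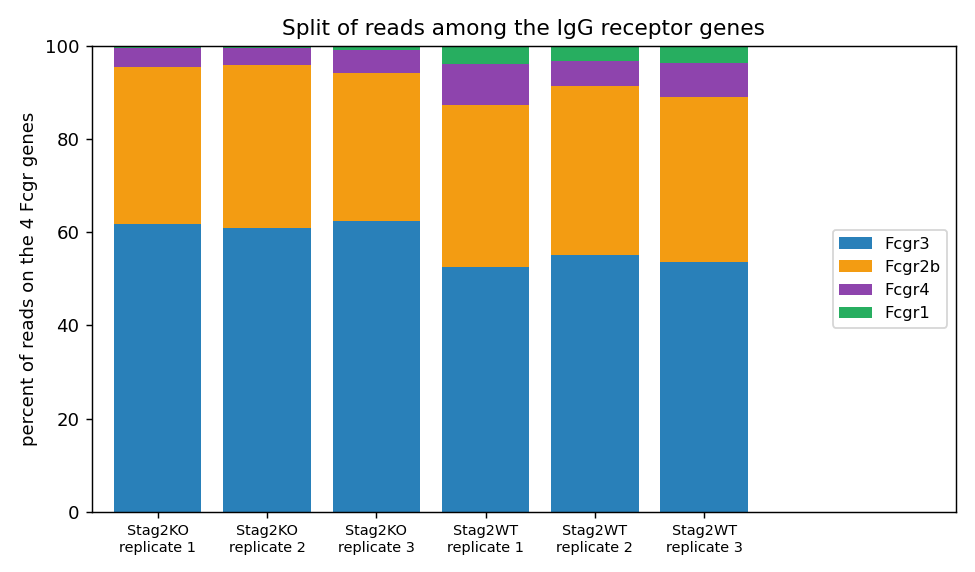
Percent of the reads on Fcgr1, Fcgr2b, Fcgr3 and Fcgr4 taken by each gene, as stacked bars from 0 to 100 percent, 1 bar per library with the Stag2KO libraries left of the Stag2WT libraries. Fcgr3 holds 61.0% to 62.5% in Stag2KO and 52.5% to 55.2% in Stag2WT, and the Fcgr1 band at the top is thin in Stag2KO (below 1% in each).

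The common gamma chain Fcer1g (chr1:171229572-171234365, minus strand) had 145, 124.5 and 156.8 CPM in Stag2KO and 192, 170.1 and 164.5 CPM in Stag2WT. Every Stag2KO library lay below every Stag2WT library, but the difference was small and was not called (142 ± 16.3 CPM in Stag2KO, 175.6 ± 14.6 CPM in Stag2WT, a log2 fold change of -0.31, SE 0.10, adjusted p = 0.0563). It was called by DESeq2 (adjusted p = 0.0238), without a filter beyond 1 read (adjusted p = 0.034) and without Stag2KO replicate 3 (adjusted p = 0.0454), with fold changes of -0.31, -0.31 and -0.38 on the log2 scale. Per read of the activating alpha chains, there were 0.632, 0.647 and 0.687 reads of Fcer1g in Stag2KO and 0.814, 0.865 and 0.793 in Stag2WT, and the groups did not overlap in this ratio either.

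Fcgrt, the IgG-recycling receptor (chr7:45092990-45103851, minus strand), fell in Stag2KO. Its levels were 10.7, 7.95 and 13.3 CPM in Stag2KO, against 41.0, 34.8 and 36.9 CPM in Stag2WT. The groups were far apart, with 28.3% of the Stag2WT level left (10.6 ± 2.67 CPM in Stag2KO, 37.6 ± 3.16 CPM in Stag2WT, a log2 fold change of -1.82, SE 0.18, adjusted p = 0.00105). Counts of 292 to 507 reads in Stag2KO and 1219 to 1474 reads in Stag2WT lie behind these values, and the fold change stayed between -2.02 and -1.65 without any 1 library. B2m, whose product is the other chain of FcRn, was not called (1155 CPM in Stag2KO, 1079 CPM in Stag2WT, a log2 fold change of 0.10, adjusted p = 0.542).

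The members best known from B cells, Fcer2a and Fcrla, also fell. Fcer2a (chr8:3681737-3694175, minus strand) had 1.54, 0.844 and 1.57 CPM in Stag2KO and 7.65, 5.17 and 3.80 CPM in Stag2WT. Here too the groups did not overlap, and 23.8% of the Stag2WT level was left (1.32 ± 0.412 CPM in Stag2KO, 5.54 ± 1.95 CPM in Stag2WT, a log2 fold change of -2.07, SE 0.33, adjusted p = 0.00503). It is the lowest member of the family, with 45, 31 and 60 reads in Stag2KO and 275, 181 and 130 reads in Stag2WT, and it drops out of the test under a filter of 5 CPM.

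Fcrla (chr1:170917576-170927583, minus strand) had 12.2, 14.9 and 20.6 CPM in Stag2KO, against 43.3, 31.4 and 24.1 CPM in Stag2WT. The groups touched without overlapping, since Stag2KO replicate 3 and Stag2WT replicate 3 lay close together. Fcrla was called (15.9 ± 4.29 CPM in Stag2KO, 32.9 ± 9.74 CPM in Stag2WT, a log2 fold change of -1.05, SE 0.27, adjusted p = 0.0398), but this call depended on single libraries. Leaving out Stag2KO replicate 1 (adjusted p = 0.0894) or 2 (0.121) ended it, as did leaving out Stag2WT replicate 1 (0.0595) or 2 (0.102) or the filter on low counts (0.0929).

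**Figure D3:**
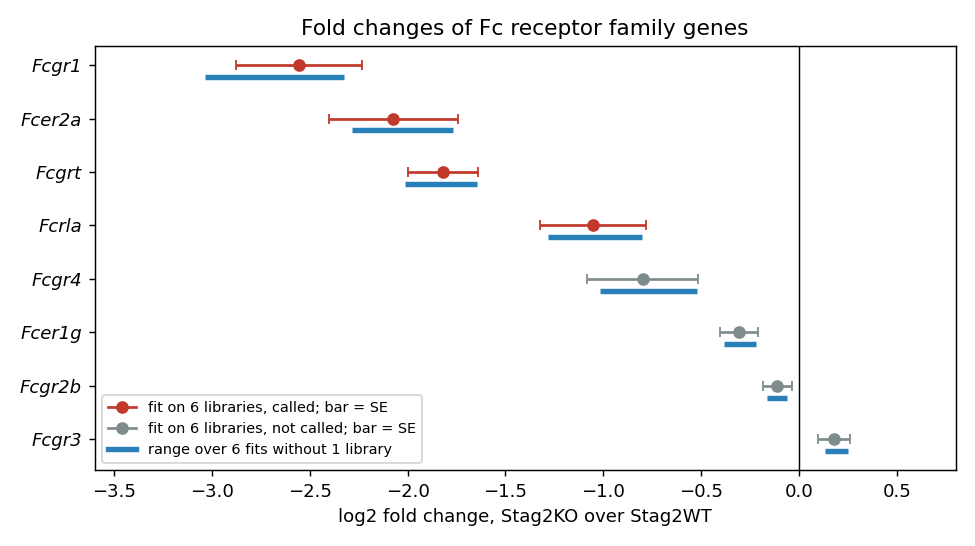
Log2 fold change of each member, Stag2KO over Stag2WT, with its SE as a thin bar (n = 3 each) and, below it, the range over the 6 fits that leave out 1 library as a thick bar. Called members (red) run from -2.56 for Fcgr1 to -1.05 for Fcrla, and Fcgr3 (0.18) is the 1 member right of 0.

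Scaled per kilobase of exon (GENCODE vM21), the family spanned a wide range of levels. In Stag2KO the order of mean CPM per kilobase was Fcer1g (189.9), Fcgr3 (149), Fcgr2b (28.5), Fcgr4 (10.96), Fcrla (9.45), Fcgrt (5.97), Fcgr1 (0.771) and Fcer2a (0.559). In Stag2WT it was Fcer1g (234.7), Fcgr3 (132), Fcgr2b (30.8), Fcgrt (21.1), Fcrla (19.6), Fcgr4 (19.1), Fcgr1 (4.58) and Fcer2a (2.35). The first 3 places were the same in both groups, and the neighbours in them did not overlap. Further down, Fcgr4 overlapped Fcrla, Fcrla overlapped Fcgrt and Fcgr1 overlapped Fcer2a in Stag2KO, while Fcgrt, Fcrla and Fcgr4 overlapped each other in Stag2WT. By these means Fcgrt stood in the fourth place in Stag2WT and in the sixth in Stag2KO. Its place in Stag2WT was not the same in each library, since in replicate 1 Fcgrt (23.01) lay below Fcrla (25.82) and Fcgr4 (25.76). The library kit is not known here, and with a kit that reads transcript ends this scaling would not hold.

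Genes whose profile over the 6 libraries lay closest to a member's were found by the Euclidean distance between centred log2 CPM profiles. Candidates were tested genes averaging 5 CPM or more, leaving out numbered gene models (Gm and Rik symbols). For Fcgr1 they were Rag1 (r = 0.993), Akap12 (0.990) and Sdc3 (0.981), and for Fcgrt they were Tmem26 (0.994), Cd38 (0.993) and Cd86 (0.997). For Fcer2a they were Maf (0.999), Ms4a1 (0.997) and Ighg2c (0.990), and for Fcrla Rasgrp1 (0.967), Slamf6 and Arl5c. Fcgr4, whose Stag2WT libraries differed most among the IgG receptors, had Trim30d (0.997), Treml4 and Sash1 nearest to it. The profiles share libraries and their grouping, and the genes were picked for likeness, so these correlations over 6 libraries are a description only.

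Other receptors for immunoglobulin, 12 genes in all, had 6 tested, of which 3 fell, 1 rose and 2 were not called (median log2 fold change -0.80). The counts of this list and of those below stand beside 21.2% of all tested genes called, 10.5% lower and 10.7% higher. Fcmr, the receptor for the constant part of IgM on B cells, fell most (2.08 CPM in Stag2KO, 10.7 CPM in Stag2WT, a log2 fold change of -2.37, adjusted p = 0.00105). The high-affinity IgE receptor of basophils and mast cells split by subunit. Fcer1a, its alpha chain, fell (55.7 ± 1.49 CPM in Stag2KO, 94.2 ± 23.5 CPM in Stag2WT, a log2 fold change of -0.76, adjusted p = 0.022), whereas Ms4a2, its beta chain, rose (260 ± 31.9 CPM in Stag2KO, 208 ± 12.5 CPM in Stag2WT, a log2 fold change of 0.32, adjusted p = 0.0442). Both calls hung on single libraries. That of Fcer1a was lost without any 1 of the Stag2KO libraries or without Stag2WT replicate 2 (adjusted p = 0.0607 to 0.0692), and that of Ms4a2 held only without Stag2KO replicate 1 (otherwise 0.0598 to 0.118). Fcrl1, an Fc receptor-like protein of B cells, fell (log2 fold change -0.84, adjusted p = 0.0216), a call lost without Stag2KO replicate 1 or 2 or Stag2WT replicate 1 (adjusted p = 0.0507 to 0.0706).

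Among 11 tested partners of the gamma chain and related adaptors, 2 rose, 1 fell and 8 were not called (median log2 fold change 0.07). Csf2rb, the common beta subunit of the IL-3, IL-5 and GM-CSF receptors, rose (344 CPM in Stag2KO, 246 CPM in Stag2WT, a log2 fold change of 0.48, adjusted p = 0.0143). Clec4e, the lectin Mincle, rose (0.43, adjusted p = 0.0322) and Clec4n, the lectin Dectin-2, fell (-1.47, adjusted p = 0.0469), but the Clec4e call was lost without Stag2KO replicate 1 or 3 or Stag2WT replicate 1 or 3 (0.0707 to 0.1), and the Clec4n call held only without Stag2KO replicate 3 (otherwise 0.0763 to 0.116). Tyrobp, the sister adaptor DAP12, was not called (0.07, adjusted p = 0.651).

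Downstream of the activating receptors, 33 signalling genes were tested, of which 6 rose, 2 fell and 25 were not called (median log2 fold change 0.03). The called share of this list was near the 21.2% of all tested genes. Syk, the kinase that docks on the gamma chain and is listed under its older symbol, was not called (331 CPM in Stag2KO, 327 CPM in Stag2WT, a log2 fold change of 0.02, adjusted p = 0.902). The genes that rose include the phospholipase Plcg1 (0.58, adjusted p = 0.00422), the adaptor Card9 (0.48, 0.00755), the kinase subunit Pik3cg (0.41, 0.0138) and Limk1, which acts on actin turnover (0.47, 0.0151). Btk, a kinase downstream of Syk, also rose (0.26, adjusted p = 0.0194), a call lost without Stag2KO replicate 2 or 3 (0.0601 and 0.0737). The exchange factor Vav2 fell (-0.63, adjusted p = 0.0118).

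On the inhibitory side, 27 genes were tested, of which 7 rose, 5 fell and 15 were not called (median log2 fold change 0.04). Inpp5d, which encodes SHIP, the phosphatase that Fcgr2b recruits, was not called (0.19, adjusted p = 0.170), nor was Ptpn6, which encodes SHP-1 (-0.17, adjusted p = 0.161). The inhibitory receptor gene Siglece rose (29.8 CPM in Stag2KO, 13.4 CPM in Stag2WT, a log2 fold change of 1.16, adjusted p = 0.000668). The adaptor Dok1 fell (-0.71, adjusted p = 0.00307), while its relative Dok2 rose (1.15, adjusted p = 0.0219), the Dok2 call being lost without Stag2KO replicate 3 or any 1 of the Stag2WT libraries (0.062 to 0.0871). Cd22 (-1.29, adjusted p = 0.00509) and Cd72 (-0.75, 0.00978), inhibitory receptors of B cells, fell, as did the inhibitory receptor Pilra (-1.39, 0.00955).

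Of 8 tested genes whose products pair with FcRn or CD23, 2 fell, 0 rose and 6 were not called (median log2 fold change -0.64). Cd81, a tetraspanin of B cells and other cells, was among those that fell (-0.75, adjusted p = 0.00146). Of 6 tested antibody genes (heavy, light and joining chains), the ligand side of the family, 1 fell, 0 rose and 5 were not called (median log2 fold change -0.87). This was Ighg2c, with 63.0 ± 14.2 CPM in Stag2KO against 272 ± 148 CPM in Stag2WT (a log2 fold change of -2.11, adjusted p = 0.0368), a call lost without any 1 of the Stag2KO libraries or without Stag2WT replicate 2 (0.0709 to 0.116). Among 14 tested transcription factors known to act in the cells that carry Fc receptors, 4 fell, 3 rose and 7 were not called (median log2 fold change -0.12). The B cell factors Pax5 (-2.83, adjusted p = 0.000645), Ebf1 (-2.14, 0.000875) and Irf4 (-1.34, 0.00429) fell, as did Cebpb, a factor of macrophages and granulocytes (-1.25, 0.00955), and Runx1 (0.50, 0.00249) and Gata2 (0.39, 0.00588) rose. Spi1, which encodes PU.1 and is listed under its older symbol, was not called (145 CPM in Stag2KO, 136 CPM in Stag2WT, a log2 fold change of 0.09, adjusted p = 0.558).

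Markers of several cell types that carry Fc receptors also differed between the groups. Of 15 tested macrophage markers 13 fell and 0 rose, with a summed level of 433 to 642 CPM in Stag2KO and 1642 to 1715 CPM in Stag2WT and a median log2 fold change of -2.27, and of 10 monocyte markers 6 fell and 0 rose (1121 to 1221 CPM in Stag2KO, 1430 to 1626 CPM in Stag2WT). These stand beside the falls of Fcgr1 (-2.56) and Fcgrt (-1.82). Fcgr4 (-0.80), Fcer1g (-0.31), Fcgr2b (-0.11) and Fcgr3 (0.18), also carried by myeloid cells, were not called. Fcgr2b is carried by B cells as well. Of 12 B cell markers 10 fell and 1 rose (820 to 1030 CPM in Stag2KO, 1098 to 1538 CPM in Stag2WT), beside the falls of Fcer2a (-2.07) and Fcrla (-1.05). Fcrl1 is counted both there and among the immunoglobulin receptors. Some of these marker calls were lost in at least 1 of the 6 fits that leave out 1 library. They were Marco, Hmox1 and Slc40a1 of the macrophage list, Ly6c2 and Klf4 of the monocyte list, and Cd24a and Fcrl1 of the B cell list. The other calls of these lists held in each of those fits.

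Eosinophil, neutrophil and natural killer cell markers rose or were not called. Of 9 eosinophil markers 7 rose and 0 fell (3834 to 5910 CPM in Stag2KO, 1160 to 1742 CPM in Stag2WT). Of 16 neutrophil markers 5 rose and 0 fell (18402 to 25205 CPM in Stag2KO, 16286 to 17743 CPM in Stag2WT), and the higher sum came with the primary granule genes Mpo, Elane, Prtn3 and Ctsg. Leaving out Stag2KO replicate 3 ended the Mpo call (adjusted p = 0.0506). That of Prtn3 was lost without Stag2KO replicate 1 or 3 or Stag2WT replicate 1 or 2 (0.0611 to 0.0997), and those of Elane and Ctsg without any 1 library other than Stag2KO replicate 2 (0.0518 to 0.136). Without these 4 the neutrophil sums overlapped (6164 to 10442 CPM in Stag2KO, 5945 to 9412 CPM in Stag2WT). The 11 neutrophil markers that were not called had log2 fold changes of either sign. Those of S100a8 (-0.26), S100a9 (-0.12), Mmp8 (-0.62) and Ly6g (-0.61) were negative. Those of Retnlg (0.91), Ngp (0.76), Camp (0.70), Lcn2 (0.46), Ltf (0.09), Mmp9 (0.09) and Cxcr2 (0.08) were positive. Of 9 natural killer cell markers 1, Nkg7, rose, 0 fell and the median log2 fold change was 0.09. Nkg7 had 296 CPM in Stag2KO and 198 CPM in Stag2WT, and the sum of the rest overlapped (81.0 to 149 CPM in Stag2KO, 88.2 to 129 CPM in Stag2WT).

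Of 7 tested basophil and mast cell markers, 2 rose and 2 fell (2147 to 2229 CPM in Stag2KO, 2685 to 2826 CPM in Stag2WT), and Tpsab1 was at 0. Dendritic cell markers overlapped between the groups (365 to 754 CPM in Stag2KO, 552 to 837 CPM in Stag2WT), with 1 of 10 lower. Among 8 erythroid markers, a lineage not known for Fc receptors, 4 fell, 0 rose and all 8 had a negative sign (1127 to 1493 CPM in Stag2KO, 1537 to 2529 CPM in Stag2WT). Each of those 4 calls (Klf1, Tfrc, Epor and Ermap) was lost without any 1 of the Stag2KO libraries or without Stag2WT replicate 1, with adjusted p from 0.0584 to 0.124. The calls of Epor (adjusted p = 0.0789) and Ermap (0.151) were also lost without Stag2WT replicate 2. The marker of the highest level was also left out of each list, a check chosen after the values were seen. The summed ranges then stayed apart for macrophage markers (347 to 523 CPM in Stag2KO, 1348 to 1422 CPM in Stag2WT) and eosinophil markers. Those of stem and progenitor markers overlapped over the whole list and came apart only without Kit (671 to 786 CPM in Stag2KO, 561 to 665 CPM in Stag2WT). Those of B cell, monocyte, erythroid, neutrophil, natural killer, and basophil and mast cell markers overlapped once that marker was left out. Dendritic cell markers overlapped with and without it. Apart from Tpsab1, no marker of these lists was at 0 in every library. The part of these cells, and of the share of reads assigned to no feature, in the differences of the Fc receptor genes was not tested.

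**Figure D4:**
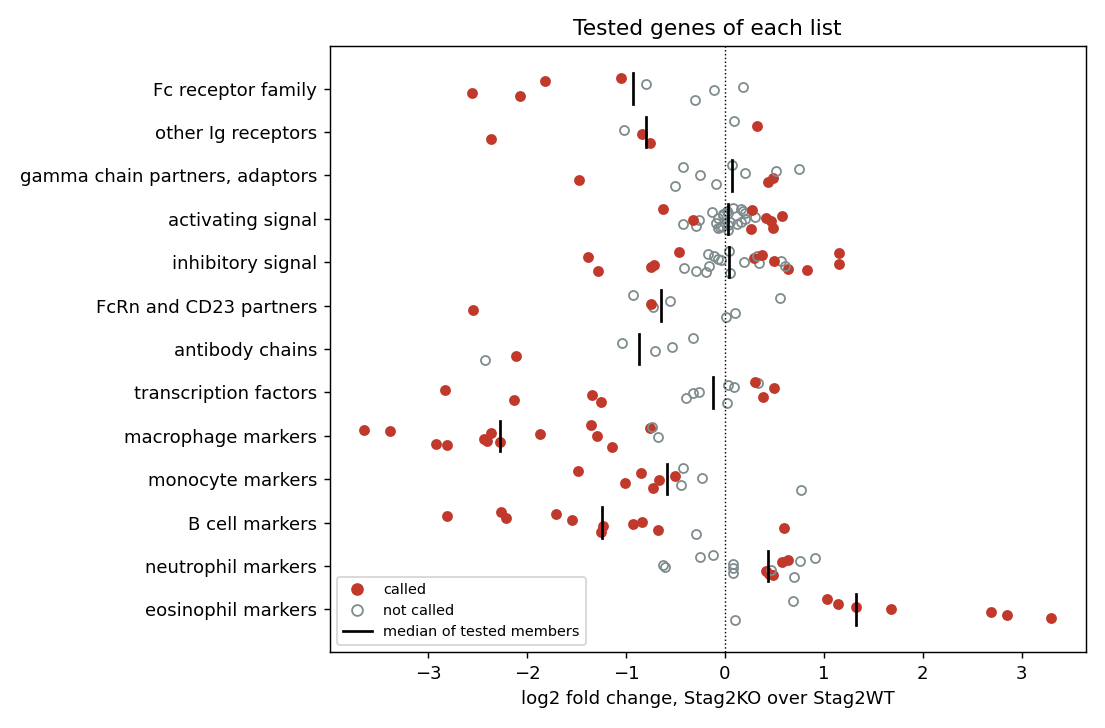
Log2 fold change (Stag2KO over Stag2WT, x axis) of every tested gene of the Fc receptor family, of its 7 pathway lists and of 5 cell type marker lists, with 1 circle per gene (filled red where called) and a black tick at the list's median. The medians are -0.93 for the family, 0.03 for activating and 0.04 for inhibitory signalling, and -2.27 for macrophage markers.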

How the data were processed

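RNA of lineage-depleted marrow was sequenced in 3 Stag2KO and 3 Stag2WT samples. The values deposited are raw read counts, with 1 row per gene symbol and no normalization. STAR 2.4, HTSeq 0.6.1, DESeq2 and the mouse build mm9 are named, per the submitters' processing notes; library kit, strand setting and annotation of these samples are not known here. Coordinates and sequences come from GRCm38 annotations, matched by symbol, and are not those of the table's build.

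Groups came from the genotype label, and replicates were numbered in accession order. Counter totals without a gene name did not enter library sizes. Reads assigned to no feature were 11.7% ± 0.982 of Stag2KO and 9.24% ± 0.727 of Stag2WT libraries. Reads aligned to several places averaged 25.0% in Stag2KO and 27.2% in Stag2WT. Counts were fitted in R 4.3.3 with edgeR 4.0.16 (TMM, filterByExpr, robust quasi-likelihood, genotype as the only term), with Benjamini-Hochberg adjustment over 15708 genes. Ratios of reads were compared by an exact permutation test after adding 0.5 read. In the shallowest library 1 CPM is 29 reads, and counting errors leave out amplification, which copies molecules. Replicates correlated at 0.992 to 0.994 on log2 CPM and differed by more than counting noise, so each was kept. The lists held 234 genes, 226 of them in the table and 8 of those under an older symbol. Named were all members, at most 6 called genes of each list by p, and the 3 closest profiles of a member; genes named without a call were added after their values were seen. Of the genes this rule names, 1 is not reported here. Members and lists were chosen with earlier results of these data known. Alternatives were median-ratio size factors, other filters, DESeq2 1.42.0, limma-voom (limma 3.58.1) and no robust fitting. Further alternatives took the share of reads assigned to no feature as a covariate, or left out each library in turn.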

Additional observations from a re-analysis of the deposited data

How the results depend on the processing

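The calls of Fcgr1, Fcgrt and Fcer2a held with each library left out, under DESeq2, limma-voom and median-ratio size factors, without robust dispersion and without a filter beyond 1 read, and those of Fcgr1 and Fcgrt also under the 5 CPM filter, which leaves Fcer2a untested. No family gene was called with the share of reads assigned to no feature as a covariate. In that fit log2 fold changes were -2.18 for Fcgr1 (adjusted p = 0.245), -1.30 for Fcgrt (0.121), -0.73 for Fcer2a (0.556) and -0.49 for Fcrla (0.778). The signs of Fcgr2b (0.0342, adjusted p = 0.949) and Fcer1g (0.0407, 0.937) turned. That fit called 0 members lower and, of all genes, 44 higher and 23 lower. It called 1 gene of the inhibitory signalling list higher and 1 of the FcRn and CD23 partners lower, and 0 genes higher or lower in the rest of these lists and among other immunoglobulin receptors, gamma chain partners, activating signalling genes, antibody chains and transcription factors. DESeq2 added Fcgr4 (-0.81) and Fcer1g (-0.31) and called 4 gamma chain partners higher. DESeq2, limma-voom and the fit without robust dispersion each called 1 FcRn or CD23 partner higher, and the last 2 called 0 other immunoglobulin receptors higher. With no filter beyond 1 read Fcer1g was called (-0.31), Fcrla was not (-1.05), and 0 antibody chains were lower. Under the 5 CPM filter 0 gamma chain partners were lower. Median-ratio size factors changed no call of a member.

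Leaving out 1 library at a time gave log2 fold changes of -1.02 to -0.52 for Fcgr4, -0.38 to -0.22 for Fcer1g and -1.28 to -0.80 for Fcrla, and called 3 to 5 members lower and 0 higher. Over all genes 962 to 1256 were higher and 902 to 1311 lower with 1 sample fewer. Other immunoglobulin receptors had 0 to 1 higher and 1 to 3 lower, gamma chain partners 1 to 3 higher and 0 to 1 lower, activating signalling genes 4 to 6 higher and 1 to 2 lower, inhibitory signalling genes 1 to 7 higher and 4 to 5 lower, FcRn and CD23 partners 0 to 1 higher and 2 to 3 lower, antibody chains 0 to 2 lower, and transcription factors 2 to 3 higher and 4 to 5 lower. The log2 ratio of Fcgr2b to Fcgr3 differed by -0.33 to -0.24. No paired analysis was possible because the labels give no replicate numbers that the groups share. Depth limits Fcgr1 and Fcer2a, whose lowest Stag2KO counts carry counting errors of 16.4% and 18%.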
